A study of Mus musculus with 24 samples.

Results

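The genes described here were 7 genes of cholesterol synthesis and its control, *Hmgcs1*, *Idi1*, *Sqle*, *Lss*, *Dhcr7*, *Srebf2* and *Insig1*. They were chosen by name, and all 7 were among the 13998 genes of the table of tag counts. Cells build cholesterol from acetyl-CoA, through mevalonate and squalene to lanosterol and then cholesterol. The transcription factor SREBP-2, encoded by *Srebf2*, switches on the genes of this pathway when sterols in the endoplasmic reticulum are low, and INSIG-1 holds SREBP-2 back when sterols are abundant. In the adult brain nearly all cholesterol is made locally, much of it for the myelin of oligodendrocytes and for membranes supplied by astrocytes.

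The samples were hypothalami of 24 male F2 mice, each sequenced as 1 SAGE-Seq library, in which transcripts are counted by 1 short stretch near their 3′ end. Of these mice 12 were *cast/cast* and 12 *b6/b6* across a subcongenic segment of Chr 17, and both groups carried *b6/b6* alleles on the rest of the genome. All mice descended from a cross in which 1 congenic male of the strain B6.CAST-17.1 was mated to C57BL/6J females, were aged 10 to 16 weeks at the start, and had a choice between a carbohydrate/protein (C/P) and a fat/protein (F/P) diet for 10 d, then chow, and then the same diets again for about 48 h and a 4 h fast before the hypothalamus was dissected by eye. The *cast/cast* mice were picked for high and the *b6/b6* mice for low carbohydrate intake, so that genotype and selected intake cannot be told apart.

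The libraries held from 7754202 to 13082873 tag hits each. The defining markers of hypothalamic neurons were all listed (7 of 7). So were those of neurons in general (5 of 5), astrocytes (5 of 5), oligodendrocytes (6 of 6) and microglia (5 of 5). Of tissue next to the hypothalamus, the markers of choroid plexus (4 of 4) and thalamus (3 of 3) were also all listed, and those of the pituitary 2 of 4. Being listed therefore does not tell how cleanly the tissue was dissected. Libraries differed along 1 axis that ran through the whole table. After the mean of each genotype was removed, the first principal component held 34.6% of the variance of all genes, and 49.4% of the genes had an absolute correlation of 0.5 or more with it. On this axis 4 *cast/cast* mice lay between -86.07 and -55.72 and the other 8 between 10.73 and 42.19. Of the *b6/b6* mice 6 lay between -69.5 and -21.27 and 6 between 18.05 and 75.98, where mice 6 and 12 reached 68.68 and 75.98. The labels name no library batch, and the study numbers of the mice served as a proxy for time of testing. The 6 mice with study numbers of 72 or lower (*cast/cast* mice 4 and 6, *b6/b6* mice 6, 7, 9 and 12) were treated as the earliest tested, since the next number was 93.

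Because each count rests on a tag near the 3′ end, the sequence that the library would read from each gene is shown here. SAGE libraries of this kind are anchored at the CATG nearest the 3′ end, which is background on the kit and was not stated in the sources used here, and the files give counts per gene rather than tags. The 27 bases from that CATG (in capitals) were read from the GENCODE transcripts of GRCm38, cut at the transcript end that the table lists.
Hmgcs1: CATGtaatttttttgcaagtattgaga
Idi1: CATGgccagcaacaaccagaatttgaa
Sqle: CATGtaaatataagccttactttacag
Lss: CATGgtacatagacatacatacactca
Dhcr7: CATGtgcagtgttaattgatcagccaa
Srebf2: CATGacttgtttgctctccctccccca
Insig1: CATGtccgtgctaagtttgcagcattg
All 7 tags lay in the 3′ untranslated region, in the last exon, and none was held by a transcript of another gene. The tag of *Srebf2* lies at chr15:82204799-82204825 in exon 19 of 19, that of *Dhcr7* at chr7:143847938-143847964 in exon 9 of 9, and that of *Insig1* at chr5:28078586-28078612 in exon 5 of 5. The annotation carries the *Lss* transcript 1545 bases and the *Srebf2* transcript 419 bases beyond the listed end. Whether tags from those longer forms were counted was not tested.

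No gene of the 7 lies on Chr 17. *Hmgcs1* spans chr13:119690462-119708077 and *Idi1* chr13:8885606-8892396 of GRCm38. *Sqle* spans chr15:59315092-59331193, *Lss* chr10:76531627-76553934 and *Dhcr7* chr7:143823167-143848410. *Srebf2* spans chr15:82147269-82204960 and *Insig1* chr5:28071412-28078662. All are on the plus strand. Promoters were searched for binding sequences known from this pathway. Of an enzyme (*Hmgcs1*), the pathway's activator (*Srebf2*) and its brake (*Insig1*), the 250 bases before the RefSeq start are shown (RefSeq, GRCm38.p6, plus strand, chr13:119690101-119690350, chr15:82147019-82147268 and chr5:28071162-28071411). For *Srebf2* and *Insig1* this start is that of the table, and for *Hmgcs1* it is base 119690351, which lies 111 bases before the start in the table. Capitals mark CACCCCA, a core of the sterol regulatory element, and CCAAT, the letters of the NF-Y box, on either strand.
Hmgcs1: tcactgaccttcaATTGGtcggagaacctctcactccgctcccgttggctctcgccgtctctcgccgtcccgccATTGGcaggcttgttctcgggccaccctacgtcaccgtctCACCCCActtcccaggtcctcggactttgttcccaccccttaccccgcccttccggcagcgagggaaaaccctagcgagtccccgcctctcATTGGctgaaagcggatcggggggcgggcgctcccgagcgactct
Srebf2: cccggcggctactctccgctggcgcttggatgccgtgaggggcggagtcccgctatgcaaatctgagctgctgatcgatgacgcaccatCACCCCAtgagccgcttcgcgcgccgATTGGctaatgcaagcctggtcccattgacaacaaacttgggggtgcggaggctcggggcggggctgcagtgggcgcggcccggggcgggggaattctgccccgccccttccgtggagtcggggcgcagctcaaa
Insig1: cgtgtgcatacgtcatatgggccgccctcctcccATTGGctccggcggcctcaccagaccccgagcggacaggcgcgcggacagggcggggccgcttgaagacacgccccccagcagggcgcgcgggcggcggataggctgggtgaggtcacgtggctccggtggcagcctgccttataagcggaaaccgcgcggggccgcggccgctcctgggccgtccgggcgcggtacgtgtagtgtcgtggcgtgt
RefSeq promoters were matched for 6 of the 7 genes, all but *Sqle*. CACCCCA began 136 bases before the RefSeq start of *Hmgcs1* and 161 bases before that of *Srebf2*, and was not in these windows of *Insig1*, *Idi1*, *Lss* or *Dhcr7*. In 300-base windows of this kind 7.62% of 32851 RefSeq promoters held CACCCCA and 37.4% held CCAAT. The latter matched 4 times in the window of *Hmgcs1* (1 of them past the start), 2 times in that of *Idi1* and 1 time each in those of *Lss*, *Srebf2* and *Insig1*. *Dhcr7* has 3 annotated starts, and CCAAT was in the window of 1. A match is a description of letters and not evidence of binding.

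The first question was whether the genes differed between the genotypes. A gene was called where its unadjusted *P* was 0.01 or less and the mean normalized counts of the genotypes differed 1.5 times or more, the thresholds of the study's methods. None of the 7 was called, while 1.49% of all 13998 genes were (limma on log2(normalized count + 1)). At an unadjusted *P* of 0.05 or less stood 2 of the 7, *Srebf2* and *Hmgcs1*, against 8.13% of all genes. Their adjusted *P* were 0.604 and 0.608, and 0.572% of all genes had an adjusted *P* of 0.05 or less. The log2 fold changes, *cast/cast* minus *b6/b6*, ran from -0.76 to 0.12 with a median of -0.094, and the median over all genes was -0.018. In none of the 7 were the ranges of the genotypes apart, as they were in 0.336% of all genes. With edgeR also 0 of the 7 were called (2.79% of all genes), and with DESeq2 1, *Srebf2* (2.82% of all genes). With a minimum mean of 20 and with libraries rescaled to 1 total 0 of the 7 were called, against 1.38% and 1.64% of all genes.

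*Hmgcs1* encodes the HMG-CoA synthase of the cytosol, an early step on the way to mevalonate. Its normalized counts in *cast/cast* mice were 431 at the lowest, 1718 at the median and 2941 at the highest, and in *b6/b6* mice 1786, 2048 and 2669. The *cast/cast* mice spread far more widely, with a coefficient of variation of 39.6% against 12.4%, and the lowest values were those of *cast/cast* mice 1 and 2. The log2 fold change was -0.44 ± 0.21 (SE, *P* = 0.0482, adjusted *P* = 0.608), with a 95% confidence interval from -0.87 to -0.0038. With the colony block of each mouse, a grouping by colony number, as a covariate it was -0.16 (*P* = 0.529). Within block 1, which is the 6 earliest tested mice, the difference was 0.052 (2 *cast/cast* mice, 4 *b6/b6*). It was -0.74 in block 2 (6 and 1 mice) and 0.0 in block 3 (4 and 2), and block 4 held *b6/b6* mice only.

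*Idi1* encodes the isomerase that makes the second building block of isoprenoids. It ranged from 88.3 to 401 (median 194) in *cast/cast* mice, and in *b6/b6* mice from 102 to 415 (median 213). *Sqle* encodes squalene monooxygenase, which acts on squalene before lanosterol is formed. It ranged from 23.9 to 384 (median 215) in *cast/cast* and from 50.9 to 373 (median 134) in *b6/b6* mice. The ranges covered each other almost entirely for both genes, and their log2 fold changes were -0.094 ± 0.27 and 0.046 ± 0.42 (SE). With colony block these were -0.57 (*P* = 0.0959) and -0.35 (*P* = 0.52).

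*Lss* encodes lanosterol synthase, which closes the sterol ring system, and had the fewest tags of the 7. Its normalized counts ran from 3.81 to 48.4 (median 24.2) in *cast/cast* and from 6.79 to 38.3 (median 21.2) in *b6/b6* mice. The lowest value, in *cast/cast* mouse 4, came from 3 tag hits, the smallest number taken as detectable. Counting error is therefore larger for this gene, and its part in the spread between mice was not tested. The log2 fold change of -0.015 had an interval from -0.72 to 0.69, and that of *Sqle*, with more tags, ran from -0.82 to 0.91. For *Lss* the log2 fold change was -0.80 with colony block (*P* = 0.0403) and 0.58 without the 6 earliest tested mice (*P* = 0.0948).

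*Dhcr7* encodes 7-dehydrocholesterol reductase, the last step to cholesterol. It ranged from 12.7 to 84.8 (median 40.6) in *cast/cast* and from 20.9 to 191 (median 42.9) in *b6/b6* mice. The 2 *b6/b6* mice at the top, 6 and 12, had 163 and 191, no other mouse was above 84.8, and the medians of the genotypes lay close together. The log2 fold change was -0.32 ± 0.37 (SE, *P* = 0.393), and without *b6/b6* mice 6 and 12 it was 0.049. It was -0.96 with colony block (*P* = 0.0363), -0.53 with study number (*P* = 0.139) and 0.50 without the 6 earliest tested mice (*P* = 0.098).

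*Srebf2*, the activator of the pathway, differed most of the 7. Its normalized counts were 30.1, 94.8 and 147 (lowest, median and highest) in *cast/cast* mice and 48.6, 111 and 620 in *b6/b6* mice. *b6/b6* mice 6 and 12 had 396 and 620, and all other mice of either genotype were at 163 or below. The log2 fold change was -0.76 ± 0.35 (SE, *P* = 0.0359, adjusted *P* = 0.604), with an interval from -1.47 to -0.054 and a ratio of means of 0.506. Without *b6/b6* mice 6 and 12 it was -0.38 (*P* = 0.178, 0.982% of all genes called), and without the 6 earliest tested mice -0.15 (*P* = 0.619, 2.37% of all genes called). The difference was smaller without either set of mice. With colony block as a covariate it was -1.27 (*P* = 0.00406, 1.78% of all genes called), with study number -0.97 (*P* = 0.00538, 2.23%), and with the first principal component -0.76 (*P* = 0.00127, 2.5%). *Srebf2* was called in each of these. Within blocks 1, 2 and 3 the difference was -2.38, -0.31 and -0.78.

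*Insig1*, which retains SREBP-2 in the endoplasmic reticulum and is itself an SREBP target, ranged from 898 to 3212 (median 1241) in *cast/cast* and from 356 to 2889 (median 1433) in *b6/b6* mice. *b6/b6* mice 6 and 12 were here at the bottom, at 465 and 356, with no other mouse below 898. The log2 fold change was 0.12 ± 0.29 (SE, *P* = 0.692). It was 0.61 with colony block (*P* = 0.0741) and turned to -0.47 without the 6 earliest tested mice (*P* = 0.0404, adjusted *P* = 0.365).

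**Figure D1:**
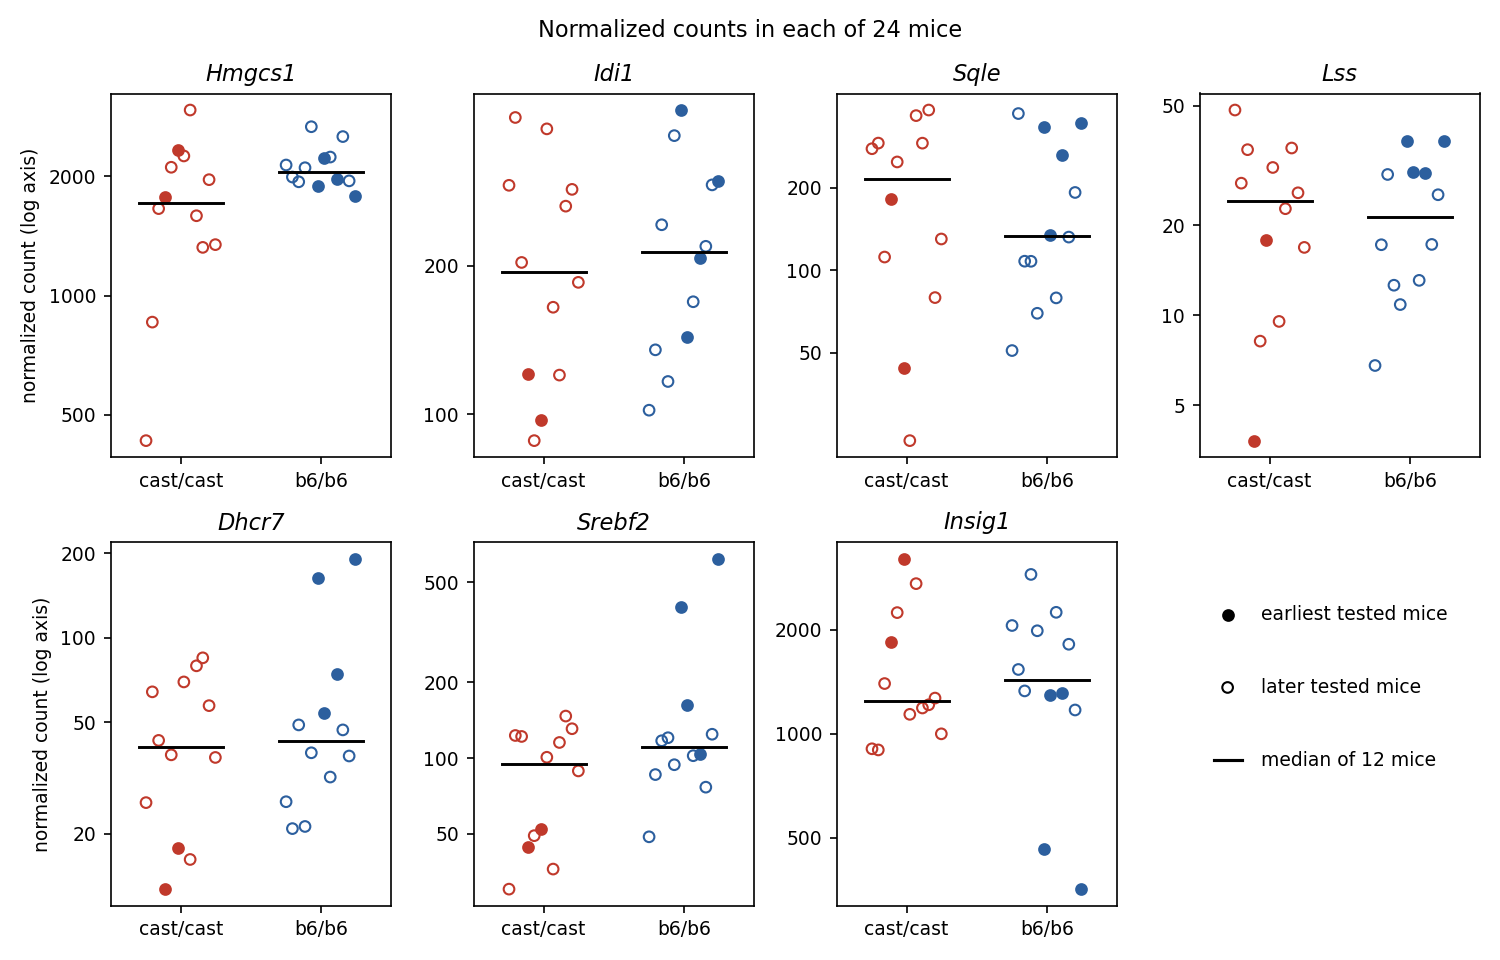
Normalized counts of the 7 genes (log axis) in each *cast/cast* and *b6/b6* mouse, 12 per genotype, with the median as a line and the 6 earliest tested mice filled. *b6/b6* mice 6 and 12 stand apart at 396 and 620 in *Srebf2*, and at 465 and 356 in *Insig1*.

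The other genes of the pathway were taken from lists of synthesis enzymes, SREBP control, sterol uptake and transport, sterol storage and removal, and SREBP-1 targets of fatty acid synthesis. Of the 36 that were tested 1 was called lower in *cast/cast* mice and 0 higher, against 1.01% and 0.471% of all genes, and their median log2 fold change was -0.10. Among the 15 synthesis enzymes *Acat2*, which makes the acetoacetyl-CoA at the head of the pathway, was the called gene. It ranged from 40.4 to 291 (median 237) in *cast/cast* and from 176 to 439 (median 290) in *b6/b6* mice, with a log2 fold change of -0.91 ± 0.29 (SE, *P* = 0.00416, adjusted *P* = 0.336). The low values were those of *cast/cast* mice 4, 5, 6 and 8, at 55.9, 98.3, 40.4 and 85.8, and the other 8 had 199 to 291. These are the 4 *cast/cast* mice at the low end of the first principal component, with which *Acat2* had an r of 0.76. *Acat2* (chr17:12943042-12960725) lies in the segment where the genotypes differ, unlike the 7 genes. So does *Abcg1* (chr17:31057694-31117981), of storage and removal, which was at 0.032 and not called. *Acat2* was not called with edgeR (*P* = 0.0131), and with colony block as a covariate it was at -1.57 (*P* = 3.16e-05, adjusted *P* = 0.00702).

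None of the 5 genes of SREBP control was called. *Mbtps2* and *Mbtps1*, the proteases that release SREBPs from the membrane, had log2 fold changes of -0.35 (*P* = 0.0502) and -0.22 (*P* = 0.151), and *Srebf1*, the paralog of *Srebf2* that drives lipogenesis, had 0.15 (*P* = 0.588). Of the 4 genes of uptake and transport none was called. *Stard4*, a carrier of sterols between membranes, had -0.40 (*P* = 0.0625), and *Npc2*, which moves cholesterol out of lysosomes, had 0.11 (*P* = 0.435). Of 7 genes of storage and removal none was called. *Abca1*, a cholesterol exporter, was at -0.49 (*P* = 0.00863) and missed the ratio of 1.5, and *Nr1h2*, the sterol sensor LXRβ, was at 0.48 (*P* = 0.0234), and at 0.041 with colony block (*P* = 0.857). Of 5 fatty acid targets none was called, and the lowest *P* were those of *Elovl6*, a fatty acid elongase (-0.18, *P* = 0.2), and *Fasn*, the fatty acid synthase (-0.21, *P* = 0.397).

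**Figure D2:**
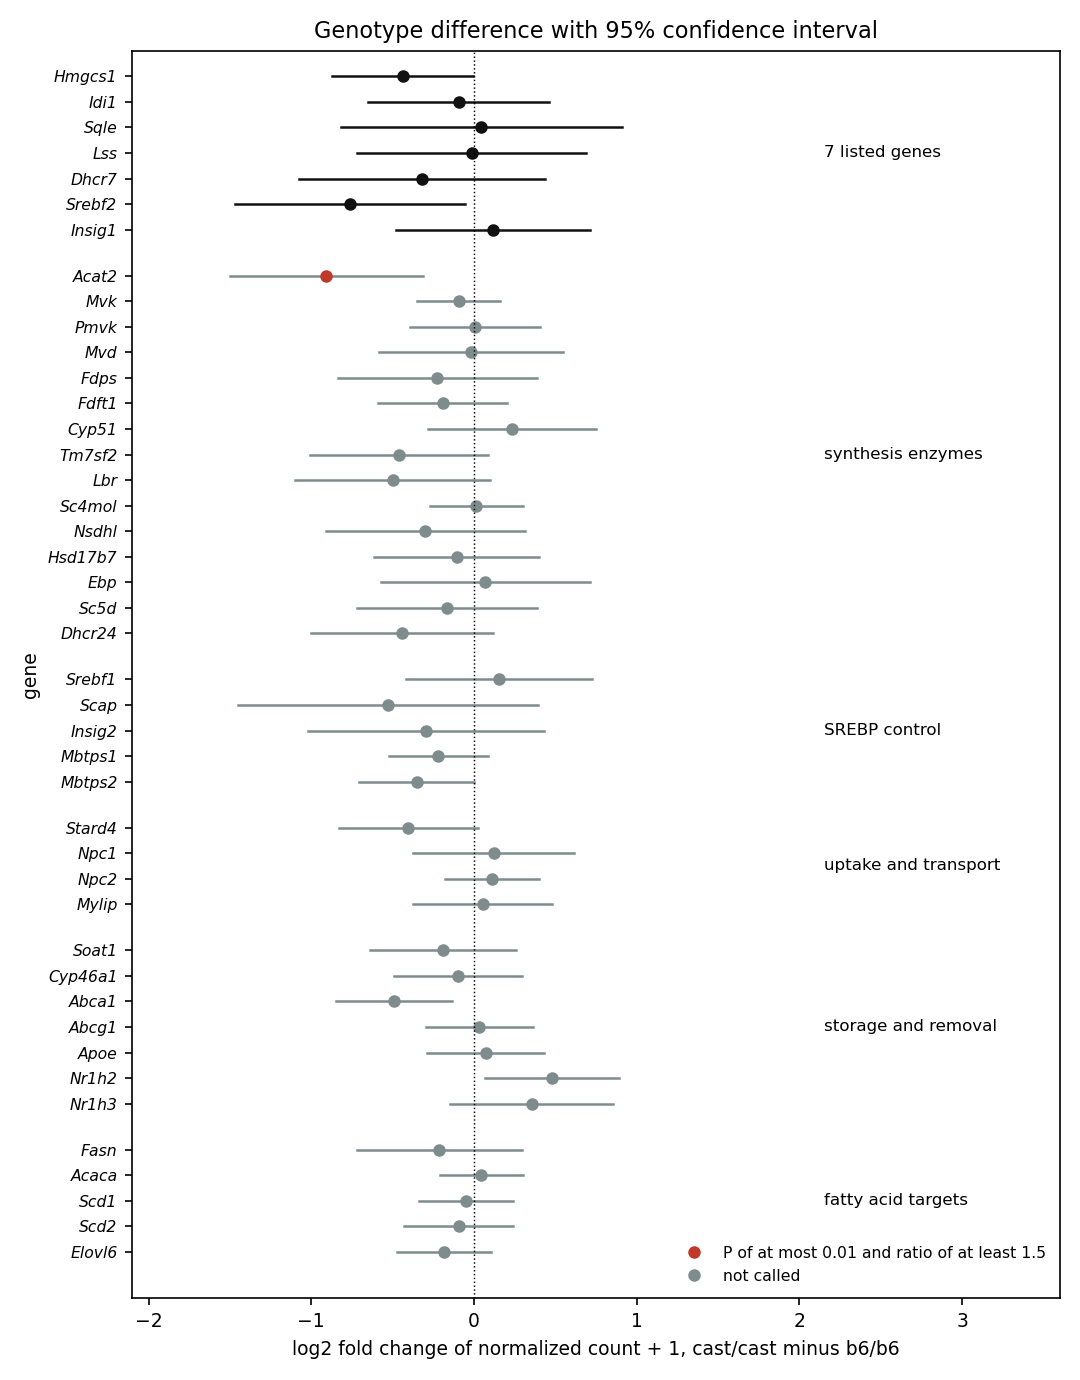
Log2 fold change (*cast/cast* minus *b6/b6*) with its 95% confidence interval for the 7 genes (black) and 36 other genes of the pathway (grey), over 12 mice per genotype. *Acat2* at -0.91 (red) is the called gene, and the intervals of *Hmgcs1* and *Srebf2* end just below 0, at -0.0038 and -0.054.

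The earliest tested mice were then compared with the 18 later ones, because time of testing and genotype were unevenly mixed. With a term for genotype none of the 7 genes was called, against 2.49% of all genes, and the log2 differences, earliest minus later, ran from -0.46 (*Insig1*) to 0.59 (*Srebf2*). No gene of the table had an adjusted *P* of 0.05 or less in this comparison, and 12.9% had an unadjusted *P* at that level (edgeR gave a wider set, with 5.51% called and again 0 of the 7). None of the 7 was called with a pseudocount of 5 (2.76% of all genes), with rescaled libraries (2.23%) or without *b6/b6* mice 6 and 12 (0.724%).

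The pooled value joined opposite differences in the 2 genotypes. In *b6/b6* mice 4 of the 7 genes were called, while 13.6% of all genes were. *Dhcr7* was at 163, 54.0, 74.3 and 191 in the 4 earliest tested mice (6, 7, 9 and 12), all above the 20.9 to 48.9 of the 8 later mice, a log2 difference of 1.67 (95% interval 0.91 to 2.43, *P* = 0.00028). *Lss* was at 38.3, 30.1, 29.9 and 38.1 in the same mice, above the later range of 6.79 to 29.5, a difference of 1.11 (*P* = 0.00688). The share of all genes in which these 4 mice lay apart from all later *b6/b6* mice was not counted. *Srebf2* was at 396, 163, 104 and 620, where the later mice reached 124, a difference of 1.45 (*P* = 0.00224). *Insig1* was at 465, 1291, 1308 and 356 and thus lower, the later mice spanning 1172 to 2889, with a difference of -1.31 (*P* = 0.00149). Mice 6 and 12 were highest in *Dhcr7*, *Lss* and *Srebf2* and lowest in *Insig1*, while mice 7 and 9 lay within the later range of *Insig1*.

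In *cast/cast* mice the sign of the difference was opposite for all 7 genes. The share of all genes with opposite signs was not counted, but 34.7% of all genes passed the interaction term described below. *Dhcr7* was at 12.7 and 17.8 in mice 4 and 6, where the 10 later mice spanned 16.2 to 84.8, a difference of -1.56 (95% interval -2.64 to -0.48, *P* = 0.00757), the 1 gene of the 7 that was called, against 19.1% of all genes. *Srebf2* was at 44.5 and 52.2, within the later range of 30.1 to 147, a difference of -0.78 (*P* = 0.164). *Insig1* was at 1840 and 3212 against 898 to 2717 in later mice, a difference of 0.90 (*P* = 0.0298, not called). Only 2 *cast/cast* mice were tested early, so these values rest on that pair.

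The difference between the genotypes was tested with an interaction term, chosen after the values had been seen. At an adjusted *P* of 0.05 or less stood 4 of the 7 genes, namely *Lss* (-2.45 ± 0.70, adjusted *P* = 0.00974), *Dhcr7* (-3.23 ± 0.63, adjusted *P* = 0.00135), *Srebf2* (-2.23 ± 0.69, adjusted *P* = 0.0159) and *Insig1* (2.21 ± 0.54, adjusted *P* = 0.00411). The values are log2 differences with SE, earliest minus later in *cast/cast* less the same in *b6/b6* mice. *Idi1* (-1.38, adjusted *P* = 0.0782), *Sqle* (-2.06, adjusted *P* = 0.0902) and *Hmgcs1* (0.62, adjusted *P* = 0.346) did not pass. Of all genes 34.7% passed, so the term was widespread in the table. Of the 36 other genes of the pathway 19 passed, 12 with a negative and 7 with a positive value. *Scap*, the escort of SREBP, was at -3.76, *Ebp*, a late sterol isomerase, at -2.97 and *Cyp51*, another synthesis enzyme, at 1.93. These genes were chosen here after their values were seen. Without *b6/b6* mice 6 and 12 *Srebf2* was at -1.27 and no longer passed (adjusted *P* = 0.159), while *Lss*, *Dhcr7* and *Insig1* passed, and 25.3% of all genes did.

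**Figure D3:**
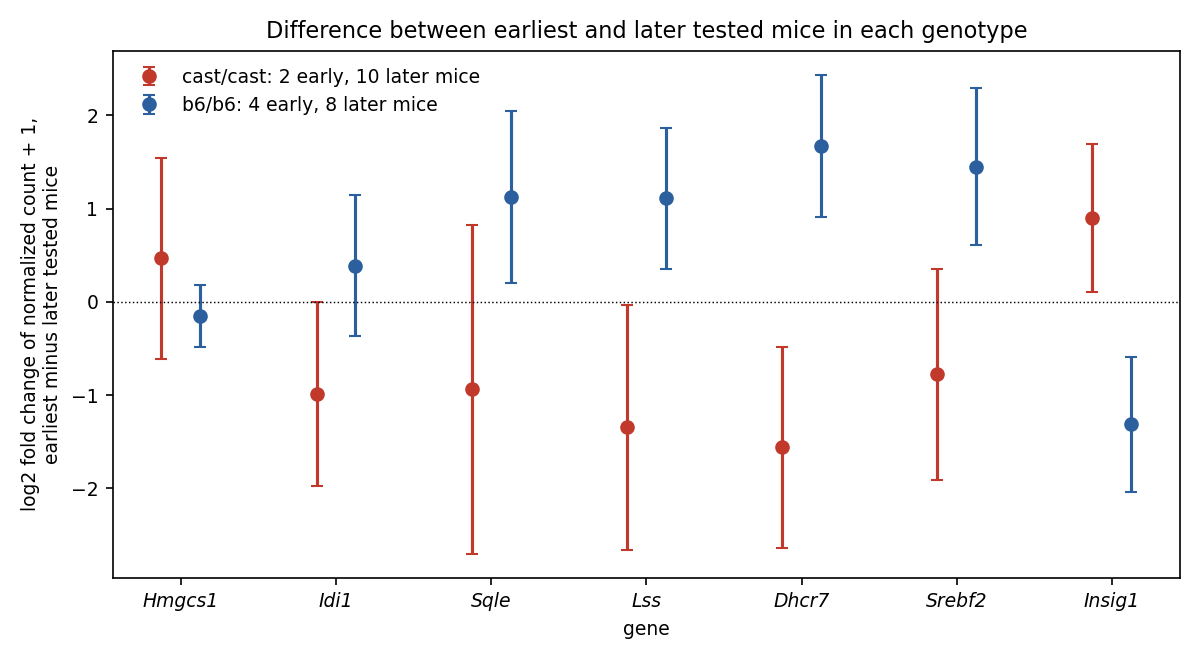
Log2 difference between the earliest and the later tested mice, with 95% confidence intervals, in *cast/cast* (2 and 10 mice, red) and *b6/b6* mice (4 and 8, blue). *Dhcr7* stands at -1.56 (*cast/cast*) and 1.67 (*b6/b6*), and *Insig1* at 0.90 and -1.31.

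Some of the earliest tested mice also lay at the 2 ends of the axis that runs through all genes. *cast/cast* mice 4 and 6 had scores of -74.27 and -86.07, the lowest of the 24, and *b6/b6* mice 6 and 12 the highest. The other earliest tested mice, *b6/b6* mice 7 and 9, were not at an end, with scores of 18.05 and 23.98. *Dhcr7* (r = 0.87), *Lss* (0.82), *Srebf2* (0.81) and *Idi1* (0.72) were positively correlated with it over the 24 mice and *Insig1* (-0.87) negatively, and r was 0.28 for *Sqle* and -0.39 for *Hmgcs1*. Marker sums were compared between these mice at the ends only, which also differ in genotype. The summed normalized counts of the 7 hypothalamic markers were 5130 to 6835 in *cast/cast* mice 4 and 6 and 13590 to 26856 in *b6/b6* mice 6 and 12, those of the 5 astrocyte markers 8075 to 9145 and 13476 to 13834, those of the 6 oligodendrocyte markers 12958 to 24386 and 26539 to 27169, and those of the 5 neuronal markers 46895 to 58643 and 35617 to 42837. In the same order of mice the 5 microglial markers summed to 2330 to 5180 and 1527 to 1601, and of tissue next to the hypothalamus the 2 listed pituitary markers to 3.6 to 26.7 and 159 to 470, the 4 choroid plexus markers to 128 to 156 and 221 to 226, and the 3 thalamic markers to 291 to 404 and 246 to 289. A sum can hide single markers, as *Csf1r*, 1 of the 5 microglial markers, had r of 0.85 with the axis. Summed over all genes, normalized counts were 11731740 and 11726075 in *cast/cast* mice 4 and 6, and 8287368 and 8433415 in *b6/b6* mice 6 and 12. The part of dissection, cell make-up and RNA quality in these differences was not tested. In whole tissue, fewer cells of a type and less RNA per cell cannot be told apart.

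**Figure D4:**
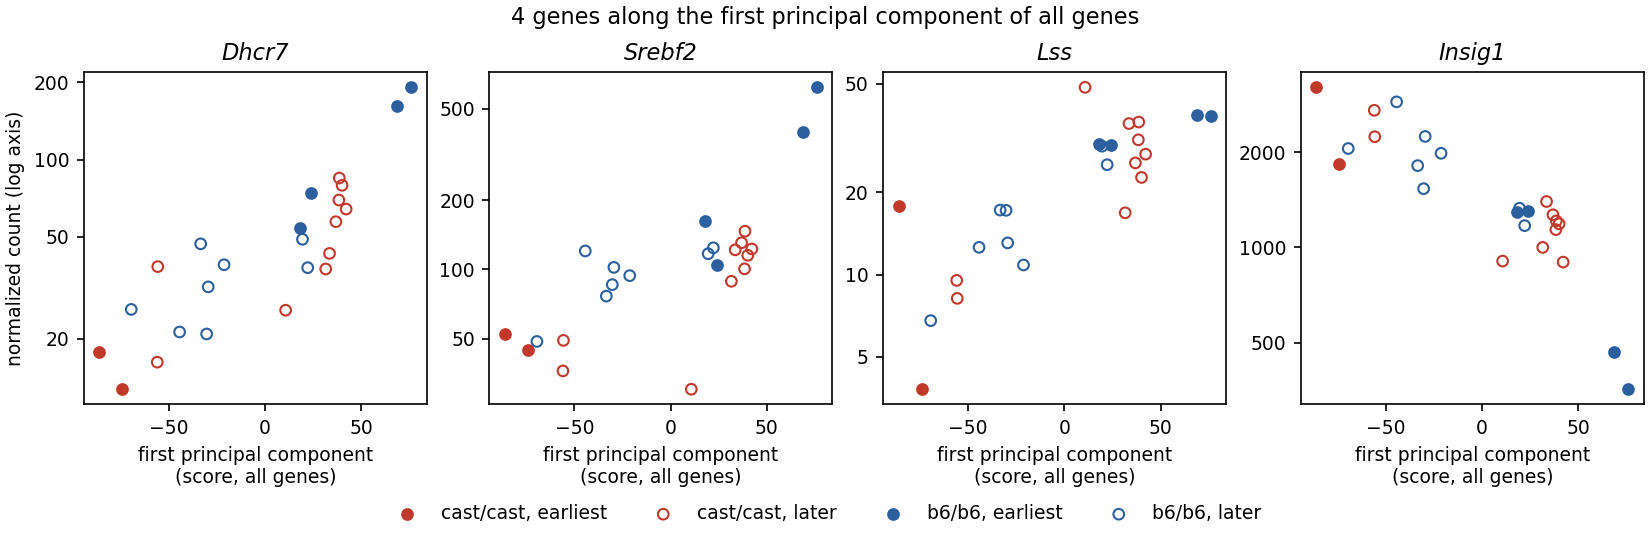
Normalized counts (log axis) of *Dhcr7*, *Srebf2*, *Lss* and *Insig1* against the score of each mouse on the first principal component of all genes, with the 6 earliest tested mice filled. *b6/b6* mice 6 and 12, at scores of 68.68 and 75.98, are highest in *Dhcr7* and *Srebf2* and lowest in *Insig1*.

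Whether the 7 genes varied together from mouse to mouse was examined over the 21 pairs, after removal of genotype means. Permutation tests within genotype (100000 resamples, two-sided) gave 11 pairs with a Benjamini-Hochberg adjusted *P* of 0.05 or less, 7 positive and 4 negative. The closest pair was *Dhcr7* and *Srebf2* (r = 0.845, rho = 0.824, permutation *P* = 2e-05, adjusted *P* = 0.000315), and r was 0.747 without the 2 mice farthest from the median of *Dhcr7*. Within genotypes r was 0.844 (*cast/cast*) and 0.849 (*b6/b6*). *Lss* and *Dhcr7* followed (r = 0.685, rho = 0.717, permutation *P* = 0.00019, adjusted *P* = 0.000997), then *Idi1* and *Lss* (r = 0.623, rho = 0.637, permutation *P* = 0.00159, adjusted *P* = 0.00394).

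*Insig1* ran against 4 of the others, with r of -0.799 for *Dhcr7*, -0.741 for *Srebf2*, -0.678 for *Lss* and -0.651 for *Idi1* (rho of -0.743, -0.67, -0.741 and -0.687, adjusted permutation *P* from 0.000315 to 0.00154). Without the 2 mice farthest from the median of the other gene these were -0.66, -0.505, -0.748 and -0.622. *Insig1* and *Hmgcs1* went together (r = 0.515, rho = 0.651, permutation *P* = 0.00075, adjusted *P* = 0.00225, r = 0.527 without the 2 farthest mice). By Pearson's r no other pair of *Hmgcs1*, and none of *Sqle*, passed.

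Such correlations were common in these libraries. Among the 97965003 pairs of all genes 10.9% had r of 0.5 or more and 10.6% r of -0.5 or less, and among the 21 pairs 28.6% and 19.0%. The median r of the 21 was 0.074, against -0.001 for all pairs. Since the mice fell into separate sets on the first principal component, r was also taken on each side of 0. Of the 10 mice below 0, r of *Dhcr7* and *Srebf2* was 0.043, and of the 14 above 0 it was 0.865. With the component removed none of the 21 pairs passed or reached an absolute r of 0.5, and *Dhcr7* and *Srebf2* were left at 0.484.

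**Figure D5:**
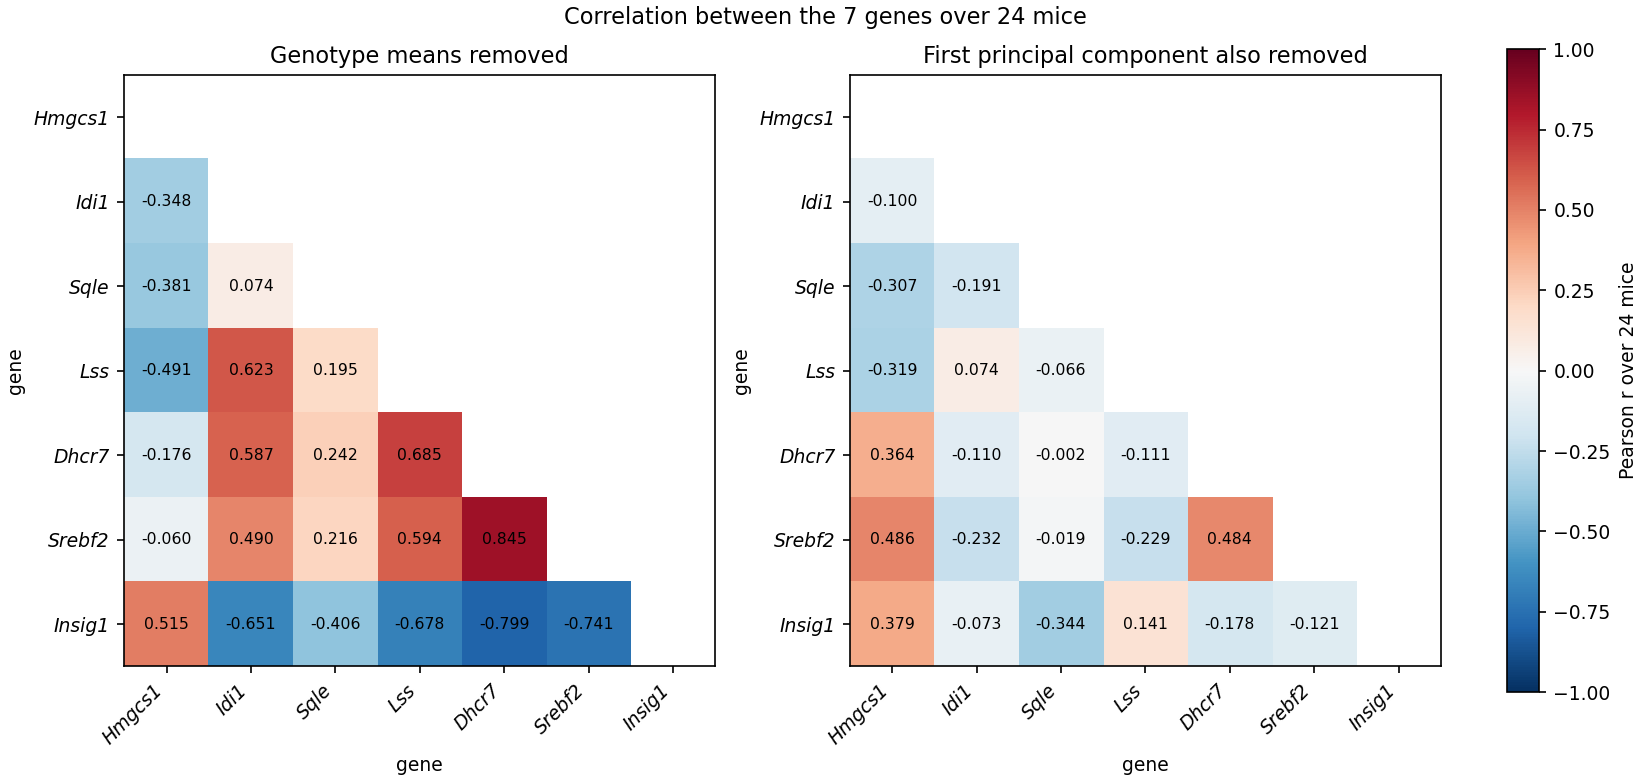
Pearson r between the 7 genes over 24 mice, with genotype means removed (left) and with the first principal component of all genes also removed (right). On the left *Insig1* is negative with *Idi1*, *Sqle*, *Lss*, *Dhcr7* and *Srebf2* (-0.406 to -0.799), and on the right the largest absolute value is 0.486, for *Hmgcs1* and *Srebf2*.

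The genes outside the list with the highest mean r with the 7 were *Mid2*, *Csf1r*, *Plscr1*, *Fam169a*, *Eif5a2*, *Nedd4*, *Cpeb1*, *Tet3*, *AI597479* and *Cd200*. Their mean r over the 24 mice was only 0.346 to 0.355, as each was positive with *Srebf2* (0.81 to 0.92) and negative with *Insig1* (-0.56 to -0.87). All 10 had r of 0.74 to 0.95 with the first principal component. An absolute r of 0.8 or more was found with 1011 genes for *Insig1* (7.22% of those tested), 780 for *Srebf2*, 758 for *Dhcr7*, 349 for *Lss*, 24 for *Hmgcs1*, 14 for *Idi1* and 1 for *Sqle*.

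Last, each gene was set against the kcal eaten from the C/P diet over 10 d, within each genotype because the groups were selected for different intakes. None of the 14 relations had an adjusted *P* of 0.05 or less, and 1 had an unadjusted *P* below 0.05. That was *Srebf2* in *b6/b6* mice (r = -0.608, permutation *P* = 0.0422, adjusted *P* = 0.591, rho = -0.403, permutation *P* = 0.193, adjusted *P* = 0.822), where r was -0.169 without the 2 mice farthest from the median intake. It rested on those mice. In *cast/cast* mice r ran from -0.418 (*Idi1*) to 0.224 (*Insig1*).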

How the data were processed

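Hypothalamus SAGE-Seq libraries of 24 F2 mice (12 *cast/cast*, 12 *b6/b6*, grouped by the labels) were used. The signal values deposited by the authors are tag hits per gene, aligned by them to RefSeq mRNA and GRCm38 with SOLiD SAGE software and scaled per library with DESeq size factors. Every value was a whole multiple of 1 step per library (100% within 0.1), so tag hits were recovered by division. The deposited comparison columns of the authors (fold change, log2 fold change and *P*) were not used. Rows of 1 gene held the same values, and 19529 rows gave 13998 genes, the lowest mean being 6.03, so that weaker genes were not analysed here.

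All genes were fitted with limma 3.58.1 (lmFit, eBayes with trend) on log2(normalized count + 1), for means of at least 5, with fold changes on that scale, which understates changes of low genes. Calls needed *P* no higher than 0.01 together with a 1.5-fold ratio of means. Adjusted *P* are Benjamini-Hochberg over all genes. Alternatives were edgeR 4.0.16 (quasi-likelihood) and DESeq2 1.42.0 on recovered tag hits, other pseudocounts (0.5 and 5), a higher minimum mean (20), rescaling of libraries to 1 total, study number or colony block as a covariate, and mice left out. The interaction term, the fits without *b6/b6* mice 6 and 12, and those using the principal component were added after the data were seen. With R 4.3.3, limma was tested on simulated data of 13998 genes. For genotype it called 87.8% of 196 changed genes and 0.8% of the others. For the earliest tested mice it called 79.9% of 199 changed genes and 0.8% of the others. These rates describe the simulated data only. Whether they apply to the real libraries, which differ along the principal component, was not tested.

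The members and lists were chosen with earlier results of these data known. The genes named were the 7, any called gene of each pathway list or else the 2 with the lowest *P*, *Srebf1*, and the 10 genes with the highest mean r with the 7. Some genes of the pathway are not reported here and are in none of its counts, and *Msmo1* is listed as *Sc4mol*. Correlations used Python 3.11.15 with numpy 2.4.6. Libraries carry no molecular identifiers, so the floor of 3 tag hits covers counting error only. No 2 libraries of a genotype were alike within sampling noise (lowest chi-square per degree of freedom 14.7).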

Additional observations from a re-analysis of the deposited data

Results flagged for a closer look

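The difference between earliest and later tested mice was itself different between the genotypes for 4 of the 7 genes (interaction term in limma, adjusted over all genes, log2 scale). The values were -2.45 for *Lss*, -3.23 for *Dhcr7*, -2.23 for *Srebf2* and 2.21 for *Insig1*. The same term passed for 34.7% of all genes, and the *cast/cast* side rests on 2 mice. Groups of 12 mice were not tested for single outlying samples, and *b6/b6* mice 6 and 12 were named after their values were seen.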

How the results depend on the processing

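Called genes among the 7 went from 0 to 1 (*Srebf2*) with DESeq2, with study number, with colony block and with the first principal component as a covariate, and were 0 under all other settings. Signs turned for several genes that were not called in the genotype comparison. Without the 6 earliest tested mice *Idi1* was at 0.20, *Lss* at 0.58, *Dhcr7* at 0.50 and *Insig1* at -0.47. Without *b6/b6* mice 6 and 12 these were at 0.061, 0.17, 0.049 and -0.23. *Lss* was at 0.009 with a pseudocount of 5, 0.077 with edgeR and 0.08 with DESeq2. *Sqle* was at -0.046 with rescaled libraries, -0.14 with study number and -0.35 with colony block. Of the other pathway genes 2 were called with rescaled libraries (*Abca1* with *Acat2*), 0 with edgeR, 2 with colony block and 2 without a minimum ratio, and with colony block *Srebf1* was at -0.57 and *Fasn* at 0.37. Over all genes limma called 208 between genotypes, edgeR 391, DESeq2 395, the fit with the first principal component 350, that without the 6 earliest mice 331 and that without *b6/b6* mice 6 and 12 137. Between earliest and later mice limma called 348, edgeR 771 and the fit without *b6/b6* mice 6 and 12 101.

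Earliest against later mice, 4 genes were called in *b6/b6* alone and 1 in *cast/cast* alone, against 0 pooled. In *b6/b6* alone *Hmgcs1* was at -0.15 and *Idi1* at 0.39. In *cast/cast* alone *Sqle* was at -0.94, *Lss* at -1.34, *Dhcr7* at -1.56, *Srebf2* at -0.78 and *Insig1* at 0.90. In the pooled fit of both genotypes without *b6/b6* mice 6 and 12 these genes were at -0.13, -0.23, -0.34, -0.16 and 0.22. Correlated pairs numbered 11 of 21, 12 with rescaled libraries, 13 with Spearman's rho, 13 in *b6/b6* alone and 8 without *b6/b6* mice 6 and 12, but 2 with block means removed or without the 6 earliest mice, 1 in *cast/cast* alone, 0 and 2 below and above 0 on the first principal component, and 0 with it removed. With it removed r was -0.11 for *Idi1* and *Dhcr7*, -0.232 for *Idi1* and *Srebf2*, -0.111 for *Lss* and *Dhcr7*, -0.229 for *Lss* and *Srebf2* and 0.141 for *Lss* and *Insig1*, and below 0 it was 0.368 for *Lss* and *Insig1* and 0.326 for *Srebf2* and *Insig1*. *Srebf2* with C/P intake in *b6/b6* mice was at 0.286 without the earliest mice and 0.025 without mice 6 and 12. The cause of these shifts was not tested. *Lss*, at 3 to 45 tag hits per mouse, is limited most by depth. No paired analysis was possible because the labels number no replicates across genotypes.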
